A study of Arabidopsis thaliana with 18 samples.

Results

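Fructose-1,6-bisphosphatase removes a phosphate from fructose 1,6-bisphosphate to give fructose 6-phosphate, a step that runs towards sugar rather than towards glycolysis. Arabidopsis has a cytosolic enzyme, which lies on the route from exported triose phosphate to sucrose, and plastid enzymes, of which HCEF1 serves the Calvin cycle. Acetylation of lysines 9 and 14 of histone H3 (H3K9ac and H3K14ac) is a mark of active chromatin, usually found near the starts of transcribed genes. It is removed by histone deacetylases such as HDA9, which works with the SANT-domain protein POWERDRESS (PWR).

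Of 37899 annotated nuclear genes, 3 are described here, the cytosolic FBP (AT1G43670, also named FINS1 for its fructose-insensitive mutant) and the plastid genes HCEF1 (AT3G54050, named for the high cyclic electron flow of its mutant) and AT5G64380. FBP was chosen by its H3K9ac values in earlier results of the same peak lists, namely its gain of peak cover in pwr-2 and its higher region reads in both mutants. The plastid genes were added as isoenzymes. The H3K9ac values of FBP are therefore a description and carry no test.

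Chromatin immunoprecipitation and sequencing was done on 10-day-old seedlings of 3 genotypes in the Col ecotype, the mutants hda9-1 and pwr-2 and the wild type (WT). All grew on MS agar in a cycle of 16 h light and 8 h dark at 23 °C. H3K9ac had 2 libraries per genotype and H3K14ac had 1, so no H3K14ac value has a replicate check, and 9 input samples were not analysed here. The design text calls the H3K9ac replicates biological but does not say whether they came from separate plantings, so p-values measure only the spread between these samples. Whole seedlings were used, so a mark on fewer cells and a weaker mark per cell cannot be told apart.

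Each deposited list gives the peaks of 1 library, with a whole number per peak that was read as its count of sequencing reads. Reads in H3K9ac peaks came to 12265470 and 18171153 in the hda9-1 libraries, 3757931 and 8873855 in those of pwr-2, and 1948253 and 2223676 in those of WT. The libraries of H3K14ac held 667780 to 1090139. The number of H3K9ac peaks was far more even, between 11653 and 12890, and so was the median width, between 1400 and 1600 bp. Because the WT libraries were the shallowest, depth and genotype cannot be told apart in any count of peaks or reads that follows. To set libraries beside each other, the reads per bp of a peak were divided by the median reads per bp of all peaks in the same library, here called relative density. All positions are on TAIR10, counted from 1.

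At the cytosolic gene FBP, every H3K9ac library had 1 peak, and the peak was wider in all 4 mutant libraries than in either WT library. In hda9-1 it measured 5600 and 5400 bp in replicates 1 and 2. In pwr-2 it measured 3400 and 7800 bp. In WT it measured 1200 and 600 bp. Mean widths were thus 6.11 times the WT mean in hda9-1 and 6.22 times in pwr-2, and the mutants did not overlap WT. Such separation was not counted for peak widths elsewhere. By peak cover, 14.4% of all genes in hda9-1 and 7.87% in pwr-2 had both libraries above both WT libraries.

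The higher-numbered end of these peaks differed between the mutants, and the lower-numbered end mainly between the pwr-2 replicates. In hda9-1 the peak ran over chromosome 1 from 16463601 to 16469200 in replicate 1 and from 16463801 to 16469200 in replicate 2, so that it began 3697 and 3497 bp outside the lower-numbered end of FBP and stopped inside the gene. In pwr-2 replicate 1 it ran from 16467201 to 16470600, which is the gene with 97 and 100 bp beyond its ends. In pwr-2 replicate 2 it ran from 16463601 to 16471400 and passed both ends, by 3697 and 900 bp. In WT it ran from 16468001 to 16469200 in replicate 1 and to 16468600 in replicate 2, and lay wholly inside the gene. Each of the 4 mutant peaks contained both WT peaks. Strand was not known from the annotation, and gene ends are therefore named by position and not as start and end of transcription.

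**Figure D1:**
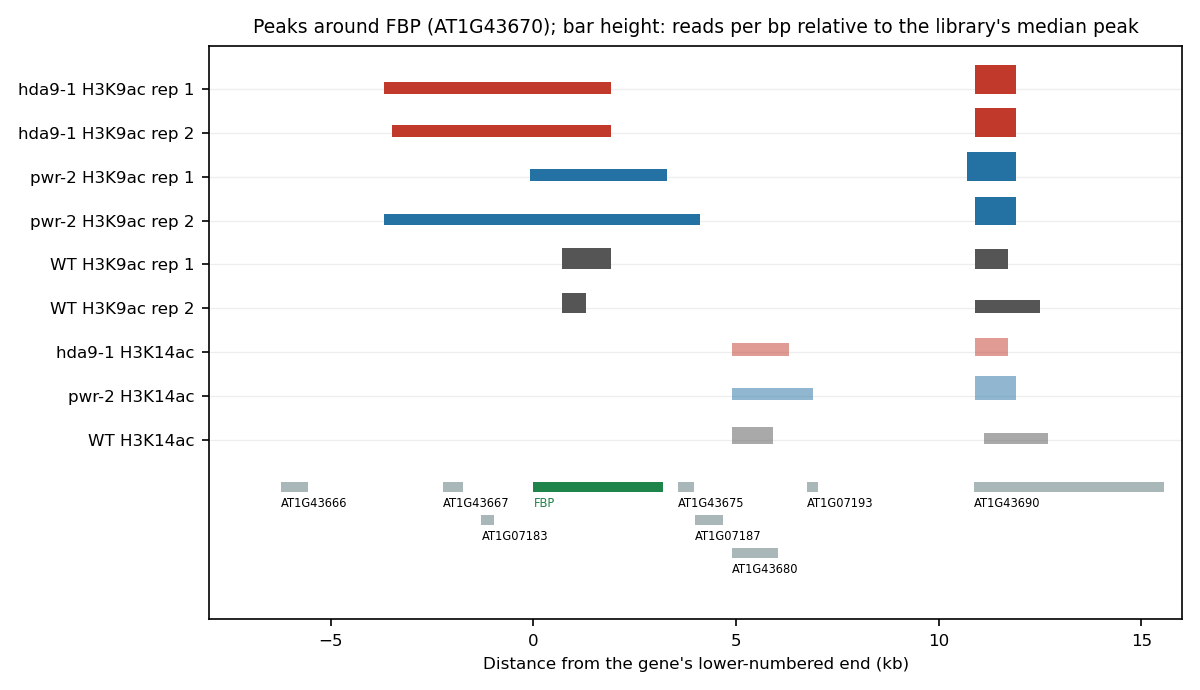
Peaks around FBP in the 9 libraries, plotted by distance in kb from the lower-numbered end of the gene, with genes below (FBP in green). Bar height is reads per bp relative to the median peak of the library. The 4 mutant H3K9ac peaks (red and blue) are 3400 to 7800 bp wide and low, the WT peaks (grey) 600 and 1200 bp wide and higher, and no H3K14ac peak (pale) lies on the gene.

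Peak cover of the 3203 bp gene followed from these positions. It was 1903 bp (59.4%) in both hda9-1 libraries, 3203 bp (100%) in both pwr-2 libraries, and 1200 and 600 bp (37.5% and 18.7%) in WT. The mean difference was 1003 bp for hda9-1 minus WT and 2303 bp for pwr-2 minus WT, against an SD of 424 bp in WT and 0 in each mutant (n = 2 each). The 500 bp at the lower-numbered end were covered over 100% in all 4 mutant libraries and 0% in both WT libraries. The 500 bp at the other end were covered over 100% in pwr-2 and 0% in hda9-1 and WT.

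A gene was taken as marked when 50% or more of the outermost 500 bp on one of its sides lay in peaks, and as gained where both mutant libraries and neither WT library were marked. FBP counted as gained in both mutants. Of all 37899 genes, 3.83% were gained in hda9-1 and 2.08% in pwr-2, with 0.438% and 0.599% lost by the reverse rule, and nothing is read from the call of FBP since it was chosen for this contrast. The call follows from the WT peaks, which lay on the gene but outside both 500 bp ends, so that WT was not without H3K9ac at FBP.

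Few peaks had a width ratio of this size. Of 10527 peaks of WT replicate 1 that overlapped a peak in WT replicate 2 and in both hda9-1 libraries, the median ratio of hda9-1 to WT mean width was 1.23, and 162 (1.54%) had a ratio as high as that of FBP or higher. For pwr-2 the median ratio was 1.11 over 10046 peaks, and 56 (0.557%) had a ratio as high. These shares describe where FBP stands and are no test, since FBP was picked for a wide gain.

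The wide mutant peaks were thin. The relative density of the FBP peak was 0.66 and 0.68 in hda9-1, 0.72 and 0.61 in pwr-2, and 1.17 and 1.11 in WT, so that WT peaks were denser than the median peak of their library and all mutant peaks less dense. Within their own libraries, the mutant peaks were denser than 4.66% and 5.52% of peaks in hda9-1 and 12.05% and 2.44% in pwr-2. The WT peaks were denser than 73.0% and 65.4%. Raw reads in the peak numbered 1675 and 2314 in hda9-1, 380 and 1645 in pwr-2, and 124 and 65 in WT. Scaled to the library's total reads in peaks, as RPM, these were 137 and 127 in hda9-1, 101 and 185 in pwr-2, and 63.6 and 29.2 in WT. The share of reads was thus higher in every mutant library, while the reads per bp were relatively lower.

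The WT libraries also held wide, thin peaks at other genes. The highest relative density of the 4 mutant FBP peaks was 0.72. Of peaks of 3 kb or more, 18.9% and 15.0% were at or under this value in the hda9-1 libraries, 23.6% and 20.0% in those of pwr-2, and 22.3% and 20.1% in those of WT. The share of peaks that were 3 kb or wider was 22.3% and 24.4% in hda9-1, 21.2% and 19.4% in pwr-2, and 18.2% and 16.0% in WT. The part of sequencing depth in the width of the FBP peaks was not tested.

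**Figure D2:**
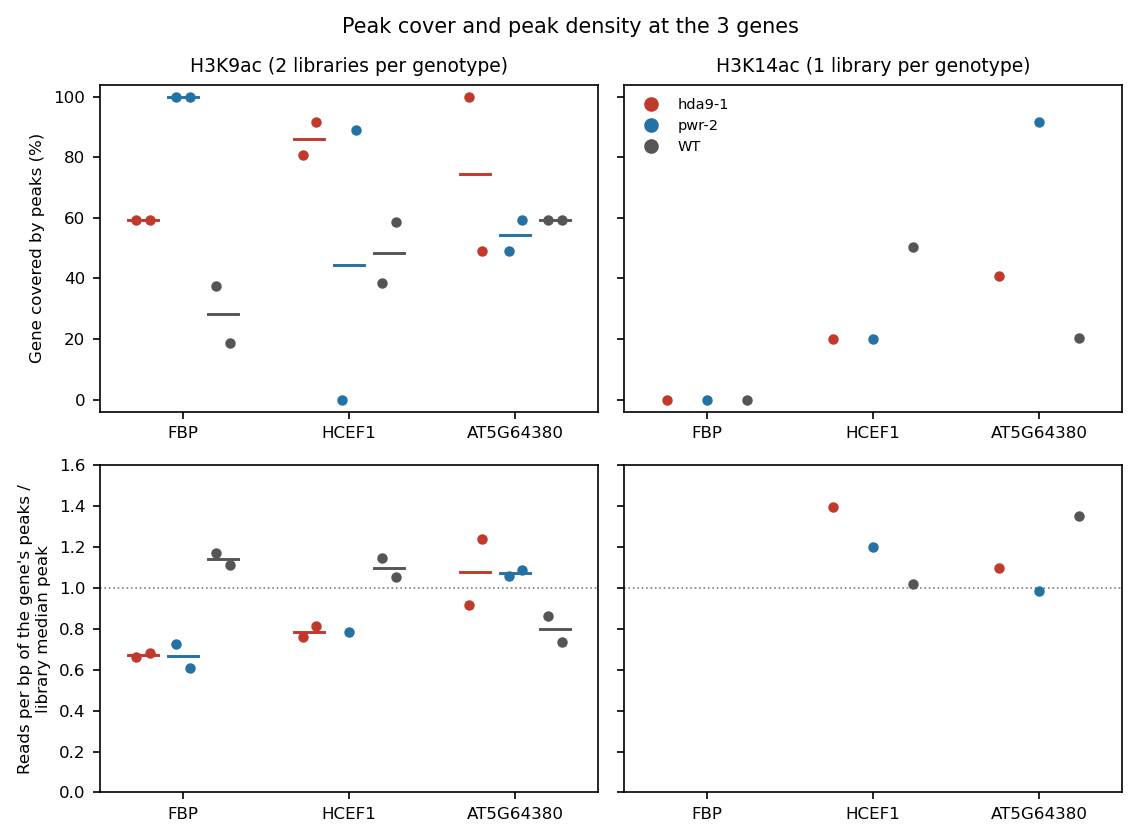
Percent of each gene covered by peaks (top) and relative density of the gene's peaks (bottom, dotted line at 1 for the library's median peak), for H3K9ac (left) and H3K14ac (right). Points are libraries and bars are means of 2. At FBP the mutants lie above WT in H3K9ac cover and below WT in relative density, and cover by H3K14ac is 0 in all 3 libraries.

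Reads were also compared over merged regions, in which overlapping H3K9ac peaks of the 6 libraries were joined. The FBP region ran over chromosome 1 from 16463601 to 16471400 and touched 5 annotated genes. Its reads, as log2 CPM, were 7.28 and 7.19 in hda9-1, 6.83 and 7.70 in pwr-2, and 6.11 and 5.03 in WT. In edgeR's fit over the 8332 regions with a peak in all 6 libraries, the log2 difference to WT was 1.57 ± 0.41 (SE) for hda9-1 and 1.67 ± 0.42 for pwr-2. In that fit 9 and 3 regions, FBP included, had a difference as high. Among the 11636 regions with a peak in at least 2 libraries there were 1071 (9.2%) for hda9-1 and 960 (8.25%) for pwr-2, so the rank of FBP depended on which regions were compared. Both WT replicates bore on these values: without WT replicate 1 the differences were 2.22 and 2.32, and without WT replicate 2 they were 1.13 and 1.22, with 145 and 103 regions as high. Without pwr-2 replicate 2 the difference in pwr-2 was 1.17, with 105 regions as high.

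The sign depended on whether width was counted. With the covered length of each library as an offset, the FBP region differed from WT by -0.79 ± 0.17 in hda9-1 and by -0.81 ± 0.17 in pwr-2 on the log2 scale, among the lowest 36 and 32 of the 8332 regions. When the reads of each peak were spread evenly over its bases and summed inside the gene alone, an alternative chosen after seeing the data, FBP differed by 0.15 ± 0.36 in hda9-1 and by 1.02 ± 0.36 in pwr-2. That count called 0.0292% of genes in hda9-1 and 0.0219% in pwr-2 by edgeR's adjusted p, and no call is given for FBP. Because each peak has 1 count, the even spread is an assumption, and where in a peak the reads fell was not measured. Over all regions, edgeR's quasi-likelihood test called 0.0% at an adjusted p of 0.05 in either mutant, with 1016 and 1224 regions at an unadjusted p under 0.05. DESeq2 called 1.85% in hda9-1 and 2.45% in pwr-2.

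Genes beside FBP were reached by the widened peaks. The long non-coding RNA gene AT1G07183, 976 bp from the lower-numbered end, was covered over its full 308 bp in both hda9-1 libraries and in pwr-2 replicate 2, and over 0 bp in pwr-2 replicate 1 and in WT. The protein-coding AT1G43667 was covered over its full 510 bp in the same 3 libraries and over 0 bp in the others. On the other side, the pseudogene AT1G43675 (377 bp) was covered only in pwr-2 replicate 2, as were 119 of the 702 bp of the long non-coding RNA gene AT1G07187. In both WT libraries and in pwr-2 replicate 1, none of these 4 neighbours carried H3K9ac.

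The next H3K9ac peak on the higher-numbered side was not wider in the mutants. It lay over AT1G43690, named here after its values were seen, and measured 1000 bp in both hda9-1 libraries, 1200 and 1000 bp in pwr-2, and 800 and 1600 bp in WT. Its relative density was 1.63 and 1.67 in hda9-1, 1.64 and 1.59 in pwr-2, and 1.12 and 0.71 in WT. The order of mutants and WT was therefore the reverse of that at FBP, and the WT replicates differed from each other. On the lower-numbered side, the window of 20 kb beside the gene was reached by a further peak in both pwr-2 libraries, of 2600 bp (16445801 to 16448400) and 4600 bp (16444401 to 16449000), and in no hda9-1 or WT library. The relative density of this pwr-2 peak was 0.78 and 0.59. Its absence from hda9-1 holds for the window alone, as a peak of hda9-1 replicate 2 just beyond it overlapped that of pwr-2 replicate 2.

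FBP carried no H3K14ac peak in hda9-1, pwr-2 or WT. Among 13723 genes with an H3K9ac peak in all 6 libraries, 1070 (7.80%) likewise had no H3K14ac peak in any of the 3 libraries, and 6.23% of the 12316 protein-coding ones. The nearest H3K14ac peak began 1700 bp past the higher-numbered end in each genotype, at 16472201, over AT1G43680 (also named after its values were seen). It measured 1400 bp with 61 reads in hda9-1, 2000 bp with 96 reads in pwr-2, and 1000 bp with 46 reads in WT. On the other side the nearest H3K14ac peak was more than 37 kb away, at 37097 bp in both mutants and 37297 bp in WT. The smallest peak called in an H3K14ac library held 18 to 22 reads, so a missing peak means that none was detected at this depth.

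HCEF1, which encodes the Calvin cycle enzyme, had an H3K9ac peak in 5 of 6 libraries. Its peak measured 1600 and 2000 bp in hda9-1 (chromosome 3, 20017001 to 20018600 and to 20019000), 1800 bp in pwr-2 replicate 2 (20016801 to 20018600), and 800 and 1200 bp in WT (20016801 to 20017600 and to 20018000). In pwr-2 replicate 1 no peak touched the gene, and the nearest were 4636 and 5578 bp away. Both WT libraries, which held fewer reads in peaks than that library, had the peak. The part of sequencing depth in the missing peak was not tested.

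Of the 1986 bp of HCEF1, peaks covered 1600 and 1822 bp in the hda9-1 libraries, 0 and 1764 bp in those of pwr-2, and 764 and 1164 bp in WT. The hda9-1 libraries lay above WT without overlap, with a mean of 1711 ± 157 bp against 964 ± 283 bp (SD, n = 2 each). Over all genes, 14.4% had such a non-overlapping higher cover in hda9-1 and 7.87% in pwr-2, and 2.51% and 4.16% a lower one. The pwr-2 libraries (882 ± 1247 bp) spanned those of WT. HCEF1 was marked at an end in every library except pwr-2 replicate 1, and was neither gained nor lost in either mutant.

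As at FBP, the wider peaks of HCEF1 were relatively thinner. Relative density was 0.76 and 0.81 in hda9-1, 0.78 in the 1 pwr-2 library with a peak, and 1.15 and 1.05 in WT. Its reads, as RPM, were 44.7 and 56.1 in hda9-1, 55.2 in pwr-2 replicate 2, and 41.6 and 55.3 in WT. The mutant libraries with a peak thus lay close to WT, whereas pwr-2 replicate 1 had 0 reads in peaks there. In the edgeR fit of all libraries over regions with a peak in at least 2 of them, the log2 difference of the HCEF1 region was 0.13 ± 2.07 (SE) for hda9-1 (adjusted p = 1) and -0.76 ± 2.08 for pwr-2 (adjusted p = 0.948). Without pwr-2 replicate 1, the library with no peak there, the edgeR values were 0.12 ± 0.23 for hda9-1 (adjusted p = 0.854) and 0.22 ± 0.28 for pwr-2 (adjusted p = 0.822). The last value leaves out a library for its outcome at this gene, and the lone pwr-2 library is assumed to vary like the others. The genes around HCEF1 were little touched. AT3G54060, which overlaps it, had 345 bp covered in hda9-1 replicate 2, and AT3G54040 and AT3G54065, the nearest genes on each side, had no H3K9ac in any library.

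H3K14ac covered less of HCEF1 in both mutants than in WT. A peak of 400 bp with 33 reads was called in hda9-1 and of 400 bp with 32 reads in pwr-2, both from 20017001 to 20017400, against 1000 bp with 49 reads in WT (20017001 to 20018000). Relative density ran the other way, at 1.39 in hda9-1, 1.20 in pwr-2 and 1.02 in WT. These are 1 library each and have no test.

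AT5G64380, the other plastid gene, lay in a stretch dense with H3K9ac. Its lower-numbered end was covered in all 6 libraries. Cover of the 1961 bp gene was 1961 and 963 bp in hda9-1, 963 and 1163 bp in the pwr-2 libraries, and 1161 bp in each WT library, so that the hda9-1 replicates spanned both other genotypes. The gene was marked in every library of both marks and was neither gained nor lost in either mutant.

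The shape of the peaks over AT5G64380 differed from that at FBP. In WT the peak at its lower-numbered end ran on over BETA-UP, a gene of pyrimidine breakdown 15 bp away, and measured 3000 bp (chromosome 5, 25739201 to 25742200) and 7600 bp (25734401 to 25742000). A second WT peak over its other end ran into HEN4, the gene of an RNA-binding KH-domain protein. In hda9-1 replicate 2 and both pwr-2 libraries a peak began at 25741201 and measured 1000, 1000 and 1200 bp, and no peak spanned the boundary with HEN4. In hda9-1 replicate 1 a peak of 3200 bp began at the same base and covered both the gene and the near end of HEN4. BETA-UP was covered over 692 and 892 bp of its 2092 bp in hda9-1, 622 and 692 bp in the pwr-2 libraries, and 2022 and 2092 bp in WT. Neither mutant overlapped WT there, and over all genes 2.51% had such a lower cover in hda9-1 and 4.16% in pwr-2.

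Relative density over all peaks on AT5G64380 in a library was 0.92 and 1.24 in hda9-1, 1.06 and 1.09 in pwr-2, and 0.86 and 0.74 in WT. Here the mutant peaks were the denser ones, the opposite order to FBP and HCEF1. The order of widths was also the opposite, so the densities are of unlike stretches. Peaks on the gene came to 4400 and 10400 bp in WT, 3200 and 1000 bp in hda9-1, and 1000 and 1200 bp in pwr-2. The merged region, 25724401 to 25745600, spanned 8 annotated genes. Its reads differed from WT by -0.09 ± 0.12 (log2, SE) in hda9-1 and by -0.21 ± 0.12 in pwr-2, with adjusted p-values of 0.789 and 0.431 in edgeR's quasi-likelihood test. Per covered bp the differences were 0.08 ± 0.09 and 0.07 ± 0.09, with adjusted p-values of 0.751 and 0.775 in the same edgeR test. Spread to the gene alone they were 0.56 ± 0.27 and 0.29 ± 0.27 (edgeR adjusted p = 0.507 and 0.707). The sign of the differences at AT5G64380 thus depended on the stretch that was counted.

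**Figure D3:**
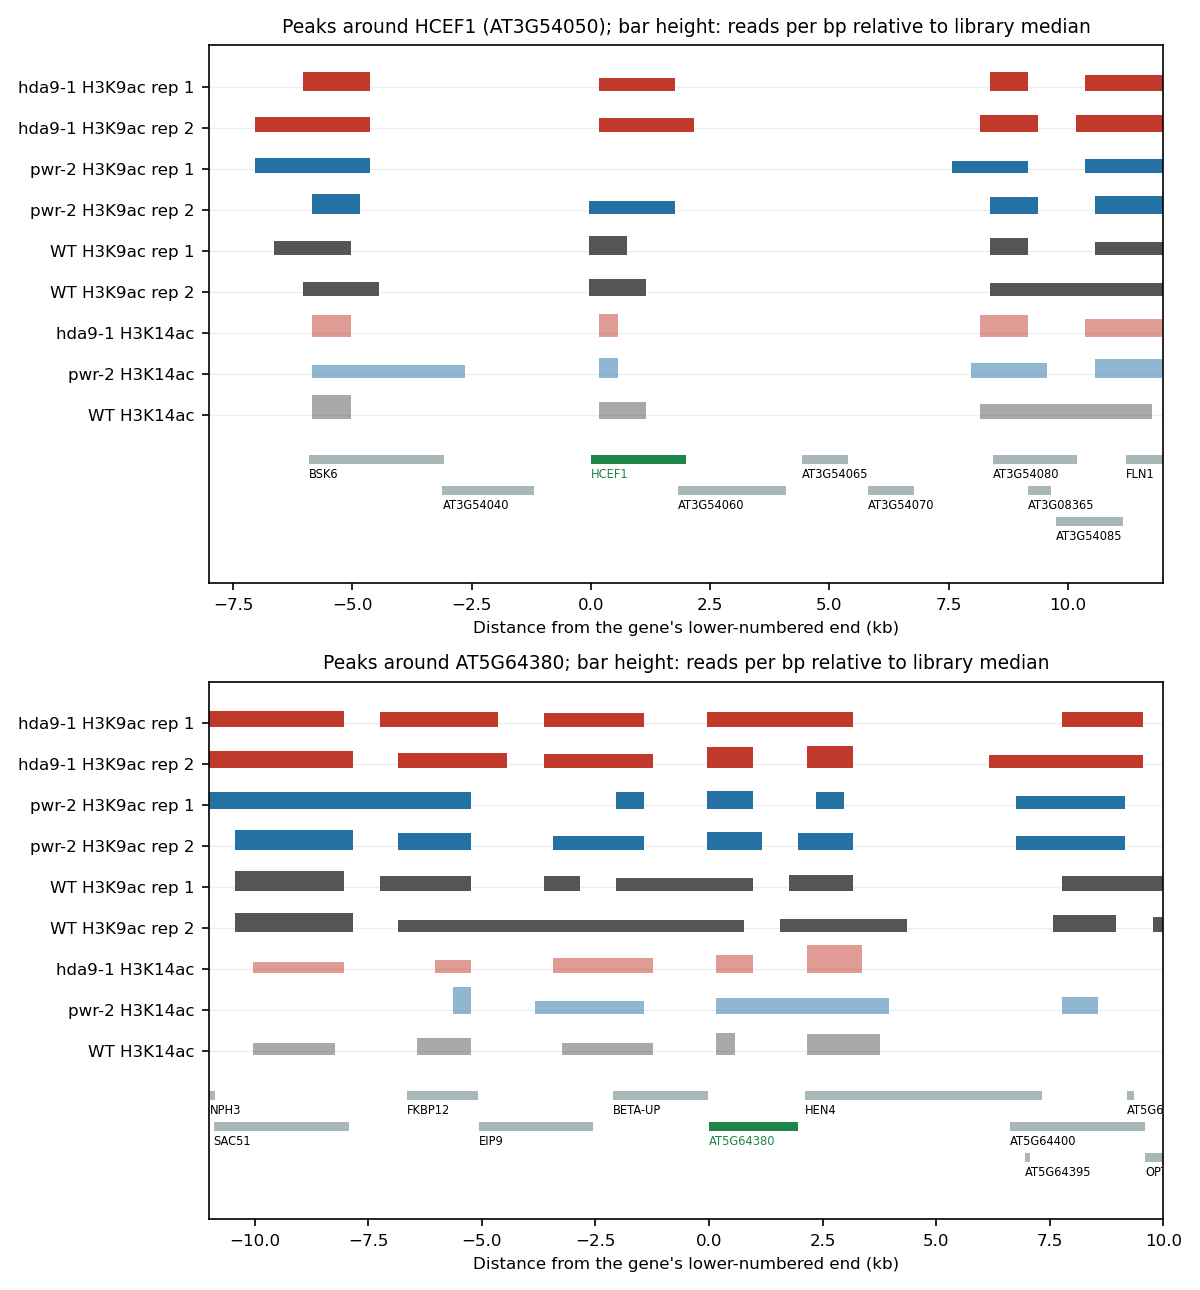
Peaks around HCEF1 (top) and AT5G64380 (bottom) in the 9 libraries, plotted by distance in kb from the lower-numbered end of each gene, with genes below (described gene in green) and bar height as reads per bp relative to the median peak of the library. HCEF1 has longer, lower H3K9ac peaks in hda9-1, none in pwr-2 replicate 1, and short ones in WT. At AT5G64380 the mutant H3K9ac peaks leave BETA-UP partly bare, and the WT peaks run over it.

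At AT5G64380 H3K14ac peaks began at 25741401 in each genotype. They measured 800 bp with 52 reads in hda9-1, 3800 bp with 249 reads in pwr-2, and 400 bp with 26 reads in WT. The pwr-2 peak ran on into HEN4, where hda9-1 and WT had separate peaks, and it covered 91.7% of the gene, against 40.8% in hda9-1 and 20.4% in WT. Relative density was similar to the median peak in the mutants, 1.10 in hda9-1 and 0.98 in pwr-2, and 1.35 in WT. None of the 3 genes gained or lost the H3K14ac mark by the 1-library rule, which called 10.3% of genes gained and 4.66% lost in hda9-1, and 10.9% gained and 4.17% lost in pwr-2.

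A list of 57 genes of the surrounding pathways, all matched in the annotation, was described in the same way: 22 of cytosolic gluconeogenesis and sucrose synthesis, 24 of the Calvin cycle and triose phosphate export, and 11 phosphofructokinases, which run the opposite reaction or, as the pyrophosphate-dependent enzymes, either direction. Calvin cycle genes were marked by H3K9ac in all 6 libraries in 21 of 24 cases (87.5%), against 7 of 22 (31.8%) in the cytosolic group, 4 of 11 phosphofructokinases (36.4%) and 32.1% of all annotated genes. H3K14ac marked 7 Calvin cycle genes (29.2%) in all 3 libraries, against 26.1% of all genes. All 57 listed genes are protein-coding, whereas the annotated genes also include non-coding genes and pseudogenes. Shares of the list and of all genes, here and below, are therefore of unlike sets. The small subunits of Rubisco RBCS1A and RBCS3B, the aldolase FBA2 and the triose phosphate translocator APE2 had H3K9ac in every library and no H3K14ac in any, as did FBP and, in the cytosolic group, the triose phosphate isomerase gene TPI. These 5 listed genes were named after their values were seen, and reads of the near-identical Rubisco genes may have been split between copies.

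In the cytosolic group, 2 of 22 genes gained H3K9ac in hda9-1 (9.09%) and the same number in pwr-2, against the 3.83% and 2.08% of all genes given above, and none lost it. UGP1, a UDP-glucose pyrophosphorylase, was covered over 600 and 800 bp in hda9-1, 961 and 761 bp in the pwr-2 libraries and 0 bp in both WT libraries. The sucrose-phosphate synthase gene ATSPS4F was covered over 2087 and 2287 bp in each mutant, and over 0 and 2400 bp in WT. Its WT replicate 2 thus had as much cover as the mutants, and the call rests on where that cover lay. No Calvin cycle gene gained or lost H3K9ac in either mutant, but the rule cannot call the 21 of 24 that were marked in all 6 libraries. By cover, 7 of the 24 (29.2%) lay above WT without overlap in hda9-1 and 5 (20.8%) in pwr-2. Over all genes these shares were 14.4% and 7.87%. In neither mutant did a Calvin cycle gene lie below WT in this way, and these shares were not tested.

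Of the 11 phosphofructokinase genes, 3 (27.3%) gained H3K9ac in hda9-1 and 1 (9.09%) in pwr-2, against 3.83% and 2.08% of all genes. PFK6 was covered over 752 and 600 bp in hda9-1, 952 and 600 bp in the pwr-2 libraries and 0 bp in WT, and its H3K14ac cover was 552 bp in hda9-1, 600 bp in pwr-2 and 0 bp in WT. PFK3 was covered over 600 and 800 bp in hda9-1, over 1000 and 0 bp in the pwr-2 libraries and 0 bp in WT. AT1G76550, a subunit gene of the pyrophosphate-dependent enzyme, was covered over 711 bp in both hda9-1 libraries, 711 and 0 bp in pwr-2 and 0 bp in WT. With so few genes, 1 gene more or less moves these shares by several percentage points, and they were not tested.

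Region reads gave no call among the pathway genes. Of 57 genes, 45 lay in a region with a peak in all 6 libraries, many of them shared with neighbouring genes. Some listed genes shared a region with each other (RBCS1B with RBCS2B and RBCS3B, and AT1G76550 with CP12-3). Such a region entered the medians below once per gene. Of the 45, 0 passed an adjusted p of 0.05 in either mutant in edgeR's test. That test called no region at all and so does not show that these genes were unchanged. Median log2 differences were 0.07 in hda9-1 and 0.24 in pwr-2 for the cytosolic group, -0.08 and 0.00 for the Calvin cycle, and 0.33 and 0.23 for the phosphofructokinases, against -0.01 and 0.00 over all 8332 regions. By the mean of both mutants, the highest in each group were phosphoglucomutase PGM2 (0.50 in hda9-1 and 0.64 in pwr-2), ribulose-phosphate epimerase RPE (0.64 and 1.10) and PFK6 (0.85 and 0.81). All are values of whole regions. The RPE region touched 4 genes, and PFK6 itself had 0 bp of H3K9ac cover in WT, so the WT reads of its region lay outside it. The lowest were the cytosolic aldolase FBA7 (-0.52 and -0.88), the transketolase gene AT3G60750 (-0.29 and -0.34) and PFK7 (0.02 and -0.05). Both mutants were set against the same WT libraries, so that the pairs of values are not independent. No listed gene with a tested region had a difference as large as that of FBP. Since FBP was chosen for its region reads, its place above this list follows from the choice and is description only. Listed genes whose region lacked a peak in some library, such as UGP1, had no value to compare.

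The merged regions whose H3K9ac pattern was closest to that of the FBP region were found by Euclidean distance between log2 CPM values. Each region was centred on its mean over the 6 libraries. The search covered 8227 other regions with a protein-coding gene and a peak in all 6 libraries. The nearest region held BTI2 (AT4G11220), a reticulon-like membrane protein gene, at a distance of 0.69, against a median of 2.22. H3K9ac peaks covered 5400 bp of it in both hda9-1 libraries, 2000 and 5000 bp in pwr-2, and 1600 and 800 bp in WT. The second held KAN2 (AT1G32240), a KANADI transcription factor gene of organ polarity, at 0.70, and was covered over 7200 and 3800 bp in hda9-1, 4000 and 9400 bp in the pwr-2 libraries, and 1400 and 1000 bp in WT. The next were AT3G26850, AT5G24830 and AT3G44970, at 0.85, 0.91 and 0.92. These names are of the protein-coding gene that overlapped the region most, and the values belong to the region. The BTI2 and AT3G26850 regions held 3 protein-coding genes each, those of AT5G24830 and AT3G44970 2 each, and that of KAN2 1. The log2 difference to WT of the 5 regions ranged between 1.07 (AT3G26850) and 1.75 (BTI2) in hda9-1, and between 0.99 (AT3G26850) and 1.76 (KAN2) in pwr-2. As the 5 were chosen by closeness to FBP over these same libraries, their small distances and high differences follow from the choice.

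**Figure D4:**
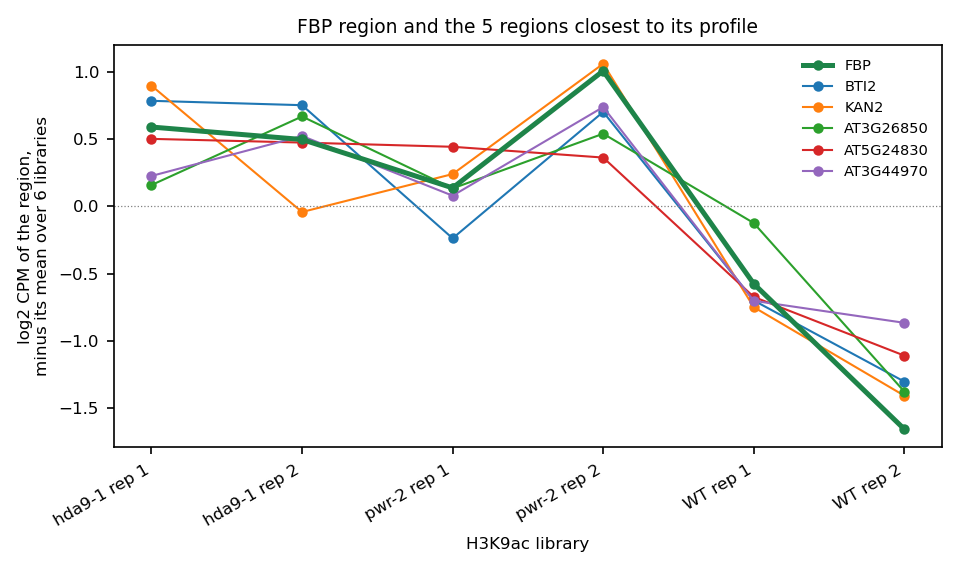
Log2 CPM of the FBP region and of the 5 closest regions, minus each region's mean, in the 6 H3K9ac libraries; lines only join the points of a region. The WT libraries lie lowest in all 6 regions, which follows from choosing the 5 by closeness to FBP in these values. In FBP the highest value is that of pwr-2 replicate 2.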

How the data were processed

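Per the submitters' processing notes, the tools were Bowtie and SICER and the build TAIR10; their versions, settings and the use of inputs were not given in the sources used here. The deposited lists give a position and a count for each peak of 1 library. They have no header, and the count was read as sequencing reads because it is a whole number that grew with peak width (Spearman's rho over peaks 0.797 to 0.938, by library). Peak starts moved in steps of 200 bp, which limits every width given.

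Genes came from RefSeq's TAIR10.1 table, whose coordinates are not printed. It was checked against the peaks by shifting it, and gene cover was highest without a shift in 45 of 45 combinations of library and chromosome. Sample titles write hdac where the genotype label is hda9-1. Merging overlapping H3K9ac peaks gave 12753 regions; the 8332 that held a peak of every H3K9ac library went into edgeR 4.0.16 (quasi-likelihood test, TMM factors, 1 fit over 3 genotypes, Benjamini-Hochberg adjustment), checked on simulated counts. The biological coefficient of variation was 0.184. The SE beside an edgeR difference was derived from the test statistic, as the absolute log2 difference divided by the square root of F. At FBP it is description only. Log2 CPM, reads scaled to effective library size, used a prior count of 2; RPM used reads in peaks alone. Counts carry no molecular identifiers, and the number of libraries limits the precision. DESeq2 1.42.0 was an alternative. Replicate numbers were not taken to pair the samples: deviations of equally numbered libraries correlated at 0.08 (hda9-1 with WT), 0.17 (pwr-2 with WT) and 0.16 (hda9-1 with pwr-2). The members, pathway list and tests were chosen with earlier results of these data known. Genes named are the 3 members, their neighbours, list genes that gained or lost H3K9ac or were extreme in their group, and the 5 regions most like FBP. No genome or protein sequence was used here.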

Additional observations from a re-analysis of the deposited data

How the results depend on the processing

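The wider cover of FBP in the mutants kept its direction when 500 bp were added on each side (differences to WT of 1503 bp for hda9-1 and 2901.5 bp for pwr-2) and when any 1 library was left out (703 to 1303 bp and 2003 to 2603 bp). It reversed when each H3K9ac library was cut to its 8739 densest peaks, as the thin mutant peaks then drop out: FBP gave -900 bp in both mutants and HCEF1 -964 bp in hda9-1, while AT5G64380 gave 1363 bp for hda9-1 and 964 bp for pwr-2. With 500 bp added, AT5G64380 gave -263 bp for hda9-1 and -763 bp for pwr-2, and its H3K14ac difference in pwr-2 was 1600 bp. Leaving out 1 library gave 547 to 947 bp for HCEF1 in hda9-1, -964 bp (without pwr-2 replicate 2) to 800 bp (without pwr-2 replicate 1) in pwr-2, also turning to 118 bp without WT replicate 2, and for AT5G64380 -198 to 800 bp in hda9-1 and -198 to 2 bp in pwr-2, the lowest in hda9-1 without replicate 1 and the highest in pwr-2 without replicate 1.

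The log2 difference of the FBP region ranged from 1.13 to 2.22 in hda9-1 and 1.17 to 2.32 in pwr-2 with 1 library left out. It was -0.79 and -0.81 per covered bp, 0.15 in hda9-1 with reads spread to the gene, and -0.78 and -0.80 with both, where the construction takes the width out. DESeq2, scaling by total reads in peaks, regions with a peak in at least 2 libraries and merging of peaks within 600 bp kept the direction at FBP and AT5G64380. The region of AT5G64380 turned to 0.081 and 0.0672 per covered bp, 0.56 and 0.29 for the gene and 0.43 and 0.43 for the gene per covered bp. With 1 library left out it ranged from -0.221 to 0.073 in hda9-1, the highest without WT replicate 2, and from -0.345 to -0.06 in pwr-2. Regions called were 154 and 204 by DESeq2, 1 and 1 per covered bp, and 4 and 3 of the genes, against 0 and 0, and 0 whichever library was left out. With the replicate block 0 regions were called in either mutant, and the difference at FBP was 1.58 and 1.68. Genes gained numbered 1872 to 3216 in hda9-1 and 1486 to 2000 in pwr-2 with 1 library left out, against 1450 and 789, and genes lost 227 to 1005 and 341 to 1222, against 166 and 227. Losses were 257 and 405 by whole-gene cover, and 635 and 628 with the densest peaks. The causes of these shifts in counts were not tested.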
